A study of Homo sapiens with 14 samples.

Results

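The 10 WNT target and feedback genes described here, of 59050 genes in the deposited count table, were followed from definitive endoderm to pancreatic progenitors. They were listed by gene symbol, and all 10 were found. They comprise the transcription factors TCF7, LEF1 and SP5, the intracellular inhibitors AXIN2 and NKD1, the membrane proteins LGR5, RNF43 and ZNRF3, the secreted antagonist DKK1 and the ligand WNT3.

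The cells were HUES8, an established human embryonic stem cell line, of wild-type genotype, differentiated to 3 stages. Definitive endoderm is called DE here, the early pancreatic progenitors that follow are PP1, and the late ones are PP2. Every group is the same line, and undifferentiated cells were not analysed here. Each stage was measured by sequencing of rRNA-depleted total RNA (RNA) and by ribosome profiling (Ribo), which sequences the stretches of mRNA covered by ribosomes. DE and PP1 have 2 libraries per assay and PP2 has 3, which makes 14 libraries. Nothing in the labels ties a replicate to a differentiation of its own, so p-values here measure only how far libraries scatter, and that scatter may be technical.

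In the canonical WNT pathway a secreted WNT ligand binds a Frizzled receptor and an LRP co-receptor, the destruction complex built on AXIN and APC stops degrading β-catenin, and β-catenin joins TCF/LEF factors on DNA. Many of the genes that this complex turns on dampen or tune the pathway: AXIN2 rebuilds the destruction complex, NKD1 acts on Dishevelled, RNF43 and ZNRF3 remove Frizzled from the membrane, and LGR5 binds R-spondins that restrain RNF43 and ZNRF3. WNT activity is known for a role in forming mesendoderm and in giving the gut tube its front-to-back pattern.

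Levels are given as CPM, gene counts scaled to a common library size, with library sizes adjusted by the trimmed mean of M-values. A change is called when its adjusted p, by edgeR's quasi-likelihood test with Benjamini-Hochberg adjustment over all genes tested, was under 0.05. The values after the sign ± are standard errors of the fit. RNA libraries held 15107847 to 21009065 counts and Ribo libraries 4710335 to 24186949. RNA PP2 replicate 3 stood apart from its group: the chi-square per degree of freedom over genes was 120 and 130 against replicates 1 and 2, which differed from each other by 3.24. In Ribo, PP2 replicates 1 and 3 had 91.5% and 77.5% of counts in protein-coding genes against 27.1% to 42.6% in the other 5 libraries. Protein-coding counts in those 5 were 1409137 to 3065680. MT-RNR2, a mitochondrial rRNA gene, took 44.6% to 60.8% of their counts, beside 1.65% and 11% in PP2 replicates 1 and 3. Chi-square per degree of freedom was 765 for Ribo PP2 replicates 1 and 2, 232 for 1 and 3, and 248 for 2 and 3. The 6 definitive endoderm markers summed to 6200 to 6550 CPM in RNA of DE, 322 to 366 CPM in PP1 and 115 to 252 CPM in PP2. In the same order the 4 early progenitor markers summed to 123 to 129 CPM, 412 to 427 CPM and 95.2 to 424 CPM. The 4 late progenitor markers summed to 1.13 to 1.72 CPM, 193 to 212 CPM and 229 to 887 CPM. Of these, PDX1 and NKX6-1 had no count in RNA of DE, PTF1A had 1 and SOX9 had 44. NKX6-1 had 34 footprint counts in Ribo of DE. In RNA of PP1 the late progenitor sum was mostly SOX9, at a mean of 141 CPM, and PDX1, at 61.0 CPM. NKX6-1 and PTF1A were there at 0.447 and 0.156 CPM, and at 118 and 14.4 CPM in PP2. SOX9 and PDX1 were at 377 and 150 CPM in PP2. PDX1 is also one of the early progenitor markers. The 4 hepatic markers summed to at most 0.0592 CPM in RNA of DE, 8380 to 8890 CPM in PP1 and 1610 to 4460 CPM in PP2. The 3 intestinal markers summed to 15.6 to 16.2 CPM, 399 to 453 CPM and 111 to 154 CPM in the same order, and the 5 mesenchymal markers to 130 to 150 CPM, 413 to 459 CPM and 266 to 445 CPM. By stage, means were 15.6, 330 and 124 CPM for VIL1, 0.129, 95.9 and 15.5 CPM for CDX2, and 0.129, 0.0519 and 0.0856 CPM for LGALS4. Among mesenchymal markers COL1A1 had 48.0, 245 and 31.4 CPM, and COL3A1 0, 84.0 and 162 CPM. PDGFRA had 80.6, 98.6 and 164 CPM, PDGFRB 8.88, 5.84 and 17.3 CPM, and TWIST1 2.51, 2.43 and 0.832 CPM. The 3 pluripotency markers summed to 39.6 to 45 CPM, 2.13 to 2.46 CPM and 8.1 to 13.7 CPM, and the 3 endocrine markers to 2.37 to 3.05 CPM, 0.778 to 1.44 CPM and 50.3 to 71.4 CPM. In PP2 the pluripotency sum was mostly SOX2, at a mean of 10.8 CPM beside 0.424 CPM for POU5F1 and 0.0493 CPM for NANOG. The endocrine sum there was mostly CHGA, at 61.9 CPM beside 1.89 CPM for INSM1 and 0.589 CPM for NEUROG3. The part of these cell types in the results below was not tested, and in bulk libraries fewer cells of a type and less RNA per cell cannot be told apart.

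From DE to PP1 the RNA of 6 of the 10 genes fell: LGR5, SP5, NKD1, AXIN2, WNT3 and ZNRF3. None of the 10 rose. Over all 24603 genes tested 24.3% passed, 12% as lower and 12.3% as higher. The median log2 fold change of the 10 was -1.48 beside 0.01 over all genes tested. LGR5 and SP5 passed the filter on low counts through their DE libraries, so a fall was the change the filter left room for.

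AXIN2 (chr17:65528563-65561648, in GRCh38.p14 as for all positions below), the scaffold of the destruction complex that is itself induced by β-catenin, had 71.6 and 73.5 CPM in RNA of DE. It had 4.86 and 4.36 CPM in PP1, and 7.19, 7.94 and 4.97 CPM in PP2. The DE libraries stood far above all 5 progenitor libraries, and every PP2 library was above both PP1 libraries. AXIN2 fell 15.7-fold from DE to PP1 (log2 fold change -3.98 ± 0.27, adjusted p = 4.37e-05) and was 10.8-fold lower in PP2 than in DE (-3.44 ± 0.22, adjusted p = 1.89e-05). Between PP1 and PP2 the difference was 0.54 ± 0.24 and did not pass (adjusted p = 0.151).

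NKD1 (chr16:50548396-50649249), which binds Dishevelled and limits the signal, had 35.5 and 41.9 CPM in DE, 2.46 and 2.33 CPM in PP1, and 3.59, 4.58 and 2.21 CPM in PP2. Here too DE was above every progenitor library, while PP1 and PP2 overlapped through PP2 replicate 3. NKD1 fell 16.1-fold from DE to PP1 (-4.01 ± 0.35, adjusted p = 0.000133) and stood 11.2-fold below DE in PP2 (-3.48 ± 0.29, adjusted p = 6.5e-05).

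LGR5 (chr12:71439129-71586310), the R-spondin receptor known from stem cells of the intestinal crypt, went from 104 and 107 CPM in DE to the edge of detection. It was counted 1748 and 1611 times in the DE libraries, 2 and 0 times in PP1, and 0, 1 and 2 times in PP2. The ratio of rates was 1780-fold lower in PP1 than in DE, with an exact 95% counting interval of 493 to 14700 (adjusted p = 1.92e-05), and 2120-fold lower in PP2 (726 to 10300, adjusted p = 4.86e-06). Counting intervals cover the sampling of reads only. With 2 and 3 counts, PP1 and PP2 could not be compared for LGR5.

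SP5 (chr2:170715337-170718078), an SP-family transcription factor induced by WNT that represses other SP-bound targets, had 36.7 and 42.4 CPM in DE. It had 0.274 and 1.35 CPM in PP1, from 4 and 26 counts, and 3 counts in all over the PP2 libraries. SP5 fell 46-fold from DE to PP1 (-5.52 ± 0.56, adjusted p = 0.000268) and was 795-fold lower in PP2 than in DE (counting interval 272 to 3860, adjusted p = 2.38e-05). With libraries left out singly the first of these changes ran from -7.14 to -4.86. The further fall from PP1 to PP2 was 17.9-fold (counting interval 5.56 to 91.5, adjusted p = 0.017) and rested on PP1 replicate 2: without that library it did not pass (-2.31, adjusted p = 0.2), nor with the RNA thinned to Ribo depth (adjusted p = 0.0751).

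The windows of 250 bases before the RefSeq start site are shown for SP5, DKK1 and WNT3, as members with 3, 2 and 0 matches of the TCF/LEF core motif CTTTGA, searched on both strands. Capitals mark CTTTGA or its reverse complement.
SP5 (chr2:170715087-170715336, plus strand): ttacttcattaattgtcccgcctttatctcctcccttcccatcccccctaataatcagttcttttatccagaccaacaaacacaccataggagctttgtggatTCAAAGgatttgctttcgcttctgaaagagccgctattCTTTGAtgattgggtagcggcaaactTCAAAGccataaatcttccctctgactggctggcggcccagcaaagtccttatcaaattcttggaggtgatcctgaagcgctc
DKK1 (chr10:52314031-52314280, plus strand): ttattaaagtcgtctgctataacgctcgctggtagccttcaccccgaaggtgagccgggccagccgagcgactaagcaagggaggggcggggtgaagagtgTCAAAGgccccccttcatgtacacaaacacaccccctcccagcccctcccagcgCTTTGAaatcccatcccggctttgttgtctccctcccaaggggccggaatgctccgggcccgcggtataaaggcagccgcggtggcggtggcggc
WNT3 (chr17:46818693-46818942, minus strand): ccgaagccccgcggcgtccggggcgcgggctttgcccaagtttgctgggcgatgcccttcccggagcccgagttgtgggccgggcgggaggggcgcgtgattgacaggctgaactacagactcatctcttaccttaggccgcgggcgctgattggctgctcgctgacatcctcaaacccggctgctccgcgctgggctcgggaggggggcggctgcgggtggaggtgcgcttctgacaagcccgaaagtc

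In the SP5 window the matches lay 147 to 142, 109 to 104 and 83 to 78 bases before the start, and the second of these is also a match of the longer CTTTGAT. In the DKK1 window they lay 149 to 144 and 95 to 90 bases before the start. Of 27305 RefSeq promoter windows of the same length 11.4% held CTTTGA at least once, 1.02% held it 2 or more times, 0.0696% held it 3 or more times, and 2.28% held CTTTGAT. Windows were read for 6 of the 10 genes, and those of LEF1, TCF7 and RNF43 held no match. The windows of LEF1 and TCF7 and a further window of RNF43 lay inside the positions given for these genes. The bases before the outermost start of LEF1 and TCF7 were thus not searched. Windows of AXIN2, NKD1, LGR5 and ZNRF3 were not used here. A match describes these letters only, and no match says nothing about binding elsewhere.

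**Figure D1:**
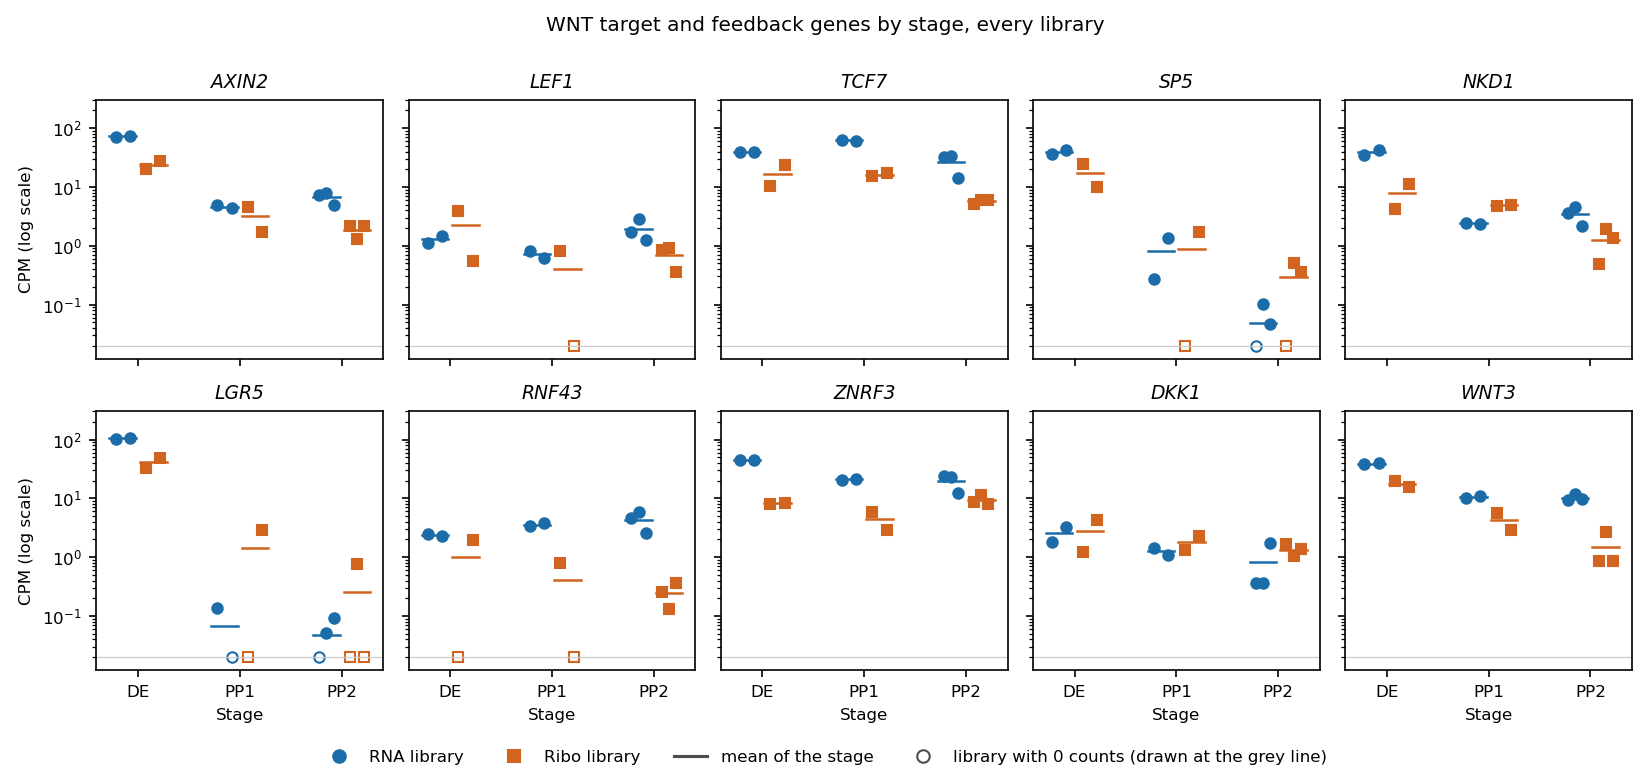
CPM (log scale) of each of the 10 genes at DE, PP1 and PP2, with 1 point for each RNA library (blue circles) and Ribo library (orange squares), short lines for stage means, and open symbols at the grey line for libraries with 0 counts. AXIN2, NKD1, LGR5, SP5, WNT3, ZNRF3 and DKK1 show RNA of both DE libraries above all progenitor libraries. For DKK1 the margin is narrow (1.84 CPM in DE replicate 1 against 1.75 CPM in PP2 replicate 3). TCF7 is highest in RNA of PP1 (63.7 and 61.2 CPM).

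WNT3 (chr17:46762506-46818692), a canonical ligand needed for the primitive streak of the mouse embryo, had 37.8 and 40.3 CPM in RNA of DE, 10.3 and 11.1 CPM in PP1, and 9.22, 11.7 and 9.66 CPM in PP2. It fell 3.65-fold from DE to PP1 (-1.87 ± 0.20, adjusted p = 0.00039) and stayed lower than DE in PP2 (3.84-fold, -1.94 ± 0.18, adjusted p = 0.000112), with PP1 and PP2 overlapping. DKK1 (chr10:52314281-52317657), the secreted antagonist that binds LRP co-receptors, was low throughout: 1.84 and 3.25 CPM in DE, 1.44 and 1.09 CPM in PP1, and 0.365, 0.356 and 1.75 CPM in PP2. No DKK1 comparison in RNA passed (adjusted p = 0.377 for PP1 against DE, 0.603 for PP2 against PP1 and 0.102 for PP2 against DE). PP2 replicate 3 held the highest DKK1 value of its stage. Without it DKK1 was lower in PP2 than in PP1 (-1.77, adjusted p = 0.0116) and than in DE (-2.78, adjusted p = 9.86e-05). Limma voom, run here and below with quality weights that lower the weight of outlying libraries, called both differences (0.0204 and 0.000311).

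Of the paired E3 ubiquitin ligases that clear Frizzled from the cell surface, ZNRF3 fell from DE to PP1 and RNF43 did not pass. ZNRF3 (chr22:28883572-29057488) had 45.0 and 44.6 CPM in DE, 20.7 and 21.5 CPM in PP1, and 23.9, 23.1 and 12.5 CPM in PP2. All 5 progenitor libraries were below both DE libraries, by 2.12-fold in PP1 (-1.08 ± 0.30, adjusted p = 0.0322) and 2.26-fold in PP2 (-1.18 ± 0.27, adjusted p = 0.0108). The first call was lost when any single DE or PP1 library was left out (adjusted p = 0.133 to 0.172), and the second without DE replicate 1 or 2 (0.0696 and 0.0684), at nearly the same fold. RNF43 (chr17:58352500-58417534) had 2.49 and 2.32 CPM in DE, 3.35 and 3.74 CPM in PP1, and 4.58, 5.75 and 2.62 CPM in PP2. Its progenitor libraries were all above DE, but neither PP1 (0.56 ± 0.39, adjusted p = 0.358) nor PP2 (0.84 ± 0.36, adjusted p = 0.111) passed against DE. Without PP2 replicate 3 RNF43 was higher in PP2 than in DE (1.11, adjusted p = 0.00169), as it was with limma voom (1.05, 0.00294).

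Neither TCF/LEF factor of the list was called from DE to PP1 in edgeR with all libraries, and the call for TCF7 changed with the setting. TCF7 (chr5:134108218-134148210), the factor also called TCF1, had 39.7 and 39.3 CPM in DE, 63.7 and 61.2 CPM in PP1, and 32.8, 33.5 and 14.03 CPM in PP2. Both PP1 libraries were above all others, the difference from DE did not pass (0.66 ± 0.37, adjusted p = 0.245), and TCF7 fell 2.34-fold from PP1 to PP2 (-1.22 ± 0.33, adjusted p = 0.0374). That call needed every DE and PP1 library and also PP2 replicate 1 (adjusted p = 0.0506 to 0.185 without 1 of them). Without PP2 replicate 3, whose 14.03 CPM was the lowest TCF7 value, the rise from DE to PP1 passed (0.66, adjusted p = 1.75e-05) and TCF7 stood below DE in PP2 (-0.25, adjusted p = 0.0497). That rise also passed, at nearly the same fold, with limma voom (0.66, adjusted p = 0.00188) and with only the 2 stages compared (0.67, 5.27e-05). LEF1 (chr4:108047548-108168932), the other factor of this family in the list, stayed between 0.623 and 2.80 CPM in every RNA library. The lowest LEF1 libraries were those of PP1, at 0.821 and 0.623 CPM, and no LEF1 comparison passed (adjusted p = 0.289, 0.0721 and 0.357 for PP1 against DE, PP2 against PP1 and PP2 against DE). The LEF1 difference between PP1 and PP2 did pass, as higher in PP2, with limma voom (1.57, adjusted p = 0.0128) and with no filter on low counts (1.42, 0.0369).

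The RNA step from PP1 to PP2 held 2 calls among the 10 genes, TCF7 and SP5, both lower, beside 18.4% of all genes tested. The median log2 fold change of the 10 was -0.08, beside 0 over all genes. By unadjusted p under 0.05, 3 of the 10 were below the threshold, beside 33.5% of all genes. RNA PP2 replicate 3 moved this count: without it 6 of the 10 passed beside 41.4% of all genes. AXIN2 (0.73, adjusted p = 0.00101), NKD1 (0.78, adjusted p = 0.00785) and LEF1 (1.66, adjusted p = 0.00528) were then higher in PP2, and TCF7, SP5 and DKK1 lower. The count was 0 without PP1 replicate 2 and 1 without either DE library, PP1 replicate 1 or PP2 replicate 1. Against DE directly, 6 of the 10 were lower in PP2, namely AXIN2, NKD1, LGR5, SP5, WNT3 and ZNRF3, beside 33.5% of all genes called and 17.1% called lower. This comparison shares its DE libraries with that of PP1 against DE. The median of the 10 was -1.77 beside 0.05 over all genes. Without PP2 replicate 3, 9 passed beside 52.5% of all genes, and in PP1 against DE 7 passed beside 49.8%.

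Ribosome footprints were counted over the same genes. Of the 10 genes 8 passed the filter in Ribo; LEF1, with 25, 3 and 46 footprint counts in DE, PP1 and PP2, and RNF43, with 11, 3 and 16, were not tested. From DE to PP1 the footprints of AXIN2 and LGR5 fell, beside 7.54% of all 15067 genes tested that were called and 3.01% called lower. None rose, and 4 of the 8 had an unadjusted p under 0.05 beside 22.1% of all genes. The median of the 8 was -1.48 beside -0.04 over all genes. LGR5 and SP5 passed the Ribo filter through their DE libraries, so the counts and medians of the 8 against DE are a description.

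AXIN2 had 20.1 and 27.4 CPM of footprints in DE, 4.56 and 1.74 CPM in PP1, and 2.15, 1.29 and 2.16 CPM in PP2. DE was above all progenitor libraries, as in RNA, and PP1 and PP2 overlapped. The fall was 7.49-fold in PP1 (-2.91 ± 0.60, adjusted p = 0.0138) and 12.4-fold in PP2 against DE (-3.64 ± 0.50, adjusted p = 0.000721). The first call was lost without DE replicate 2 (adjusted p = 0.1) or PP1 replicate 2 (0.169).

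LGR5 had 33.0 and 49.4 CPM of footprints in DE, 0 and 2.89 CPM in PP1, and 0, 0.774 and 0 CPM in PP2. Its PP1 footprints were 10 counts in replicate 2 and none in replicate 1. The fall from DE was called in PP1 (28.9-fold, -4.85 ± 1.29, adjusted p = 0.0453) and in PP2 (288-fold, -8.17 ± 1.28, adjusted p = 0.00139). The fitted change in PP1 ran from -11.93 to -3.80 when single libraries were left out. It was not called without either DE library (adjusted p = 0.118 and 0.194), either PP1 library (0.229 and 0.0501) or PP2 replicate 3 (0.0635). The change in PP2 ran from -11.91 to -6.99 in the same way, and with DESeq2 neither fall passed (adjusted p = 0.451 in PP1 and 0.0622 in PP2).

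SP5 had 24.4 and 10.1 CPM of footprints in DE, 0 and 1.74 CPM in PP1, and 0, 0.516 and 0.360 CPM in PP2. Again the only PP1 footprints, 6 counts, lay in replicate 2, the PP1 Ribo library that also held the LGR5 counts. The difference did not pass in PP1 (-4.33 ± 1.39, adjusted p = 0.0893) and did in PP2 against DE (74.3-fold, -6.22 ± 1.23, adjusted p = 0.00518), a call lost without DE replicate 1 (0.0555). The PP1 difference passed with limma voom (adjusted p = 0.00515), no filter (0.000165), only the 2 stages compared (0.00165), or without PP2 replicate 1 (0.0115), replicate 2 (0.0248) or replicates 1 and 3 (0.000645). WNT3 had 19.95 and 15.7 CPM in DE, 5.63 and 2.89 CPM in PP1, and 0.860, 2.71 and 0.863 CPM in PP2. The 3 stages of WNT3 footprints did not overlap, and the fall passed between DE and PP2 (12.7-fold, -3.67 ± 0.62, adjusted p = 0.00223) but not at either single step (adjusted p = 0.104 and 0.165). Without PP2 replicate 2 both WNT3 steps passed (0.022 and 0.0126), as they did with limma voom (0.00665 and 0.0224). The first also passed with only the 2 stages compared (0.00676) and without PP2 replicates 1 and 3 (0.007). Without PP2 replicate 2, PP2 held only replicates 1 and 3, with 91.5% and 77.5% of counts in protein-coding genes. For comparisons with PP2 in any such fit, stage and this difference between libraries cannot be told apart.

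Footprints of NKD1, unlike its RNA, did not pass from DE to PP1. They measured 4.24 and 11.4 CPM in DE, 4.82 and 4.92 CPM in PP1, and 0.481, 1.93 and 1.37 CPM in PP2. Both PP1 libraries lay between the DE libraries, and all PP2 libraries lay below. The difference from DE to PP1 was -0.68 ± 0.80 (adjusted p = 0.671), that from PP1 to PP2 was -2.01 ± 0.75 (adjusted p = 0.141), and PP2 was 6.43-fold lower than DE (-2.68 ± 0.73, adjusted p = 0.0217). The call in PP2 was lost without DE replicate 2 (-1.73) or PP2 replicate 3 (adjusted p = 0.0698). Nor was it made in the fit that kept only replicate 2 for PP2, where the difference from DE was -1.95. The step from PP1 to PP2 passed with limma voom (adjusted p = 0.0163) and without PP2 replicate 2 (0.0363).

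Footprints of TCF7 were 10.2 and 23.3 CPM in DE, 15.3 and 17.1 CPM in PP1, and 5.09, 5.93 and 5.97 CPM in PP2. The PP2 libraries formed a narrow group below all others, at 2.96-fold below DE (-1.57 ± 0.42, adjusted p = 0.0203). That call was lost without DE replicate 2 (-0.78, adjusted p = 0.281), PP1 replicate 2 (0.0517) or PP2 replicate 3 (0.0625), and the step from PP1 to PP2 did not pass (-1.52 ± 0.43, adjusted p = 0.0652). It did with DESeq2 (0.0362), limma voom (0.00685), a mean of 50 counts or more (0.0494) and without PP2 replicate 2 (0.0295). The TCF7 difference between DE and PP2 was not called with no filter on low counts (-1.28, adjusted p = 0.0666). Nor was it called in the fit that kept only replicate 2 for PP2 (-1.44). Footprints of ZNRF3 were 8.12 and 8.30 CPM in DE, 5.89 and 2.89 CPM in PP1, and 8.50, 11.2 and 7.99 CPM in PP2. No ZNRF3 comparison in Ribo passed (adjusted p = 0.369, 0.236 and 0.814). DKK1 footprints were 1.03 to 4.33 CPM in every library, and none of its comparisons passed (adjusted p = 0.382 to 0.828).

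In all, 6 of the 8 genes tested had lower footprints in PP2 than in DE, beside 27.6% of all genes called and 14.5% called lower. They were AXIN2, TCF7, SP5, NKD1, LGR5 and WNT3, and the median of the 8 was -3.16 beside 0.03 over all genes. Between PP1 and PP2 0 of 8 passed in edgeR beside 5.01% of all genes, 3 of 8 had an unadjusted p under 0.05 beside 22.9% of all genes, DESeq2 called 1 and limma voom 3 beside 10.6% and 27.7% of all genes. Ribo PP2 replicate 2 touched this count: without it 4 of the 8 passed, namely TCF7, NKD1, WNT3 and LGR5, beside 23.6% of all genes. PP2 was then only replicates 1 and 3, which differ from the DE and PP1 libraries in protein-coding share. With Ribo PP2 replicates 1 and 3 left out together, the counts for PP1 against DE, PP2 against PP1 and PP2 against DE were 4, 0 and 4 of 10 tested, all lower, beside 17.8%, 4.54% and 14.2% of all genes. For PP1 against DE the count was 0 without DE replicate 2 or PP1 replicate 2, 1 without replicate 1 of DE or of PP1 or replicate 3 of PP2, and 4 without replicate 2 of PP2.

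**Figure D2:**
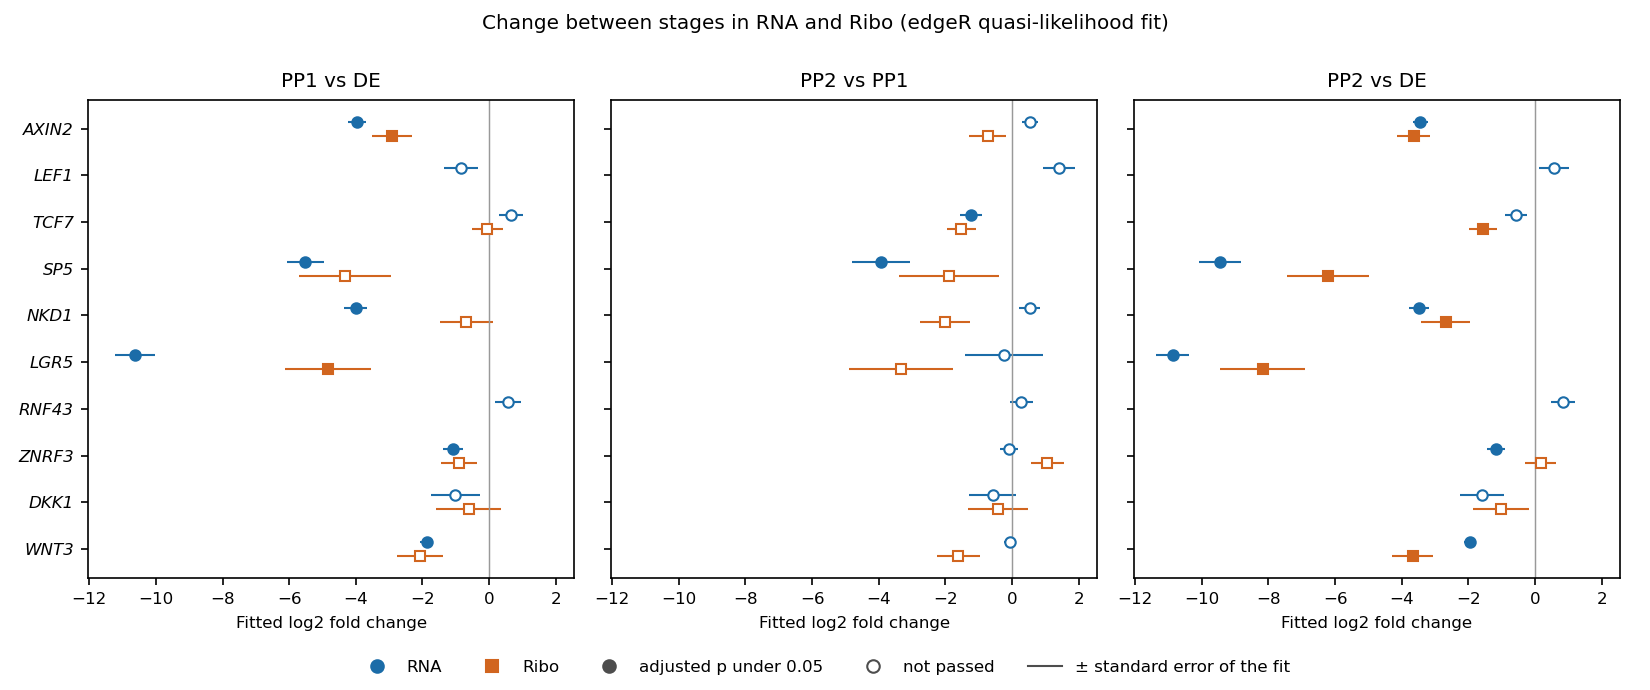
Fitted log2 fold change (x axis) of each gene (y axis) in RNA (blue circles) and Ribo (orange squares) for PP1 against DE, PP2 against PP1 and PP2 against DE, with bars for the standard error of the fit and filled symbols for adjusted p under 0.05. Against DE the filled symbols all lie left of 0, and LEF1 and RNF43 have no Ribo symbol since they were not tested. Fitted values of LGR5 and of SP5 in PP2 rest on a few counts in the lower stage.

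The change in footprints beyond the change in RNA, called translation efficiency (TE) here, was the difference between the Ribo and RNA log2 changes, tested in 1 fit of all 14 libraries. None of the 8 genes passed in edgeR in any of the 3 comparisons, beside 0.269% of 14152 genes tested for PP1 against DE (0.0707% higher, 0.198% lower), 0.0777% for PP2 against PP1 (all lower) and 5.69% for PP2 against DE (2.01% higher, 3.68% lower). By unadjusted p under 0.05 the counts were 2, 3 and 2 of 8, beside 10.2%, 10.5% and 26.6% of all genes. DESeq2 called 1, 0 and 1 of the 8 beside 1.56%, 1.72% and 14.6% of all genes, and limma voom 2, 2 and 2 beside 2.97%, 13.1% and 29.2%.

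NKD1 held the best ranked TE difference among the 8 from DE to PP1. Its RNA went from a mean of 38.7 to 2.40 CPM while its footprints went from 7.80 to 4.87 CPM, a difference of 3.38 ± 0.86 on the log2 scale with adjusted p = 0.141 in edgeR. It passed with DESeq2 (3.35, adjusted p = 0.0148), limma voom (3.56, 0.00327), no filter on low counts (3.48, 0.0445), only the 2 stages compared (3.40, 0.0148) and Ribo PP2 replicates 1 and 3 left out (3.45, 0.0389), and over all libraries left out singly it ran from 2.90 to 4.33. Of 22 alternatives for this change from DE to PP1, 17 did not call it, among them every fit with a single library left out. From PP1 to PP2 the NKD1 difference was -2.78 ± 0.82 (adjusted p = 0.229). The LGR5 difference of 5.72 ± 1.82 (adjusted p = 0.266) rested on 2 RNA counts and 10 footprints in PP1 and was -2.50 without Ribo PP1 replicate 2. For WNT3 the difference in PP2 against DE was -1.91 ± 0.62 (adjusted p = 0.0751). This passed with DESeq2 (-1.93, adjusted p = 0.0151), limma voom (-2.37, 0.00696) and without Ribo PP2 replicate 2 (-2.59, 0.0016). The last of these fits kept only Ribo PP2 replicates 1 and 3, with the limit given above. The other 19 of 22 alternatives did not call this WNT3 difference. ZNRF3 stood at 1.22 ± 0.49 in the same comparison (adjusted p = 0.136). For PP2 against DE the other differences were -0.31 ± 0.49 for AXIN2, -1.12 ± 0.54 for TCF7, 2.79 ± 1.66 for SP5 and 0.47 ± 1.03 for DKK1 (adjusted p = 0.715, 0.198, 0.294 and 0.803).

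**Figure D3:**
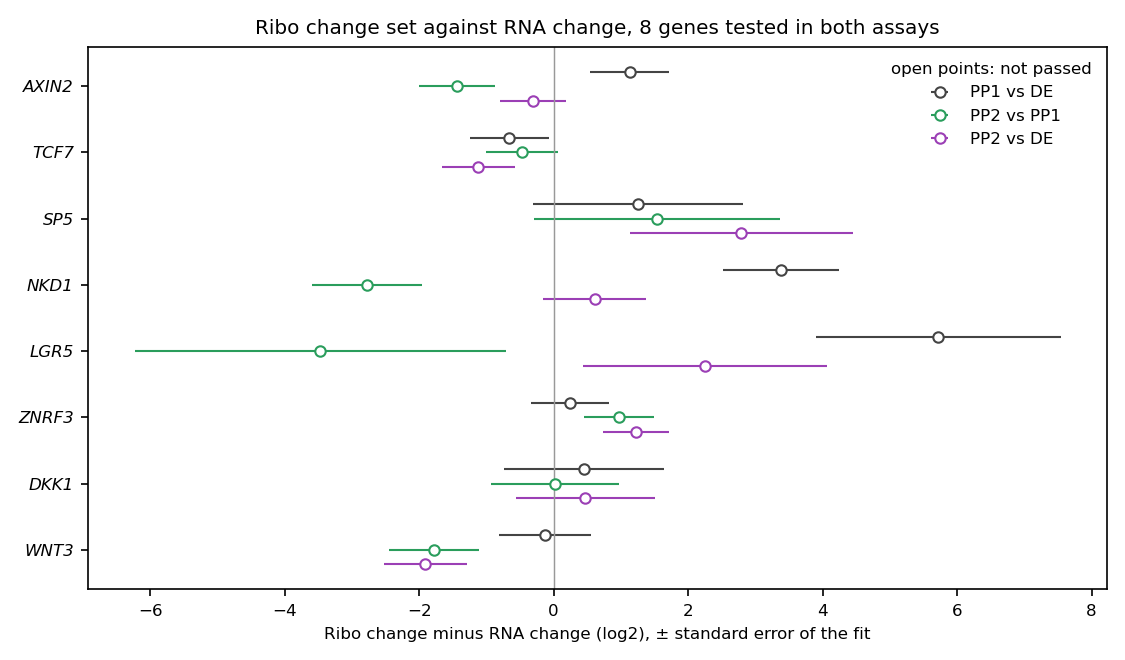
Ribo change minus RNA change on the log2 scale (x axis, bars for the standard error of the fit) for the 8 genes tested (y axis) in PP1 against DE, PP2 against PP1 and PP2 against DE (colours). All points are open because none passed the adjusted threshold, and the bars of LGR5 and SP5, at up to 2.76, are the widest.

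Levels between genes were compared only per kilobase of gene model, as CPM per kb. In RNA of DE the order of stage means was LGR5 (20.1), SP5 (19.2), AXIN2 (13.9), WNT3 (9.16), ZNRF3 (6.42), TCF7 (3.92), NKD1 (2.23), DKK1 (1.14), RNF43 (0.320) and LEF1 (0.241). The libraries of LGR5 and SP5 overlapped, at 19.8 and 20.5 against 17.8 and 20.6 CPM per kb, and the other neighbours in that order did not overlap. In PP1 the order was led by TCF7 (6.19), ZNRF3 (3.03) and WNT3 (2.51), with AXIN2 at 0.882 and LGR5 last at 0.0131. In PP2 the same trio led, at 2.85 for ZNRF3, 2.65 for TCF7 and 2.39 for WNT3, and their libraries overlapped. Footprints per kb put SP5 (8.37) and LGR5 (7.89) first in DE and ZNRF3 (1.33) first in PP2. In DE the SP5 and LGR5 libraries overlapped, at 11.8 and 4.90 against 6.32 and 9.46 CPM per kb. The feature counted in Ribo is not given, so gene model length may differ from the length that footprints cover. The footprint order is therefore a description.

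The genes whose RNA profile was most like that of AXIN2 were picked by Pearson correlation of log2 (CPM + 1) over the 7 RNA libraries among 11761 genes. Among them were SKIDA1 (0.9992), the member NKD1 (0.9983), HOMER2 (0.9978), SEMA5B (0.9976) and ADD2 (0.9975). Each of these had its highest mean in DE, SKIDA1 for example at 171, 8.71 and 13.5 CPM in DE, PP1 and PP2. The 7 libraries fall into 3 stages, so the coefficient is a description. LGR5 ranked 98, WNT3 160, SP5 401 and ZNRF3 799 by the same measure, and TCF7 ranked 5668 with a coefficient of 0.0512.

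Around these 10 genes, 92 further genes of the pathway in 9 lists were read in the same fits, and 75 of them were tested in RNA. From DE to PP1, 9 rose and 18 fell beside the 12.3% and 12% of all genes, with a median of -0.25. The secreted antagonists held 6 of the falls among 9 tested, with 1 rise. SFRP1, a soluble Frizzled-like protein that binds WNT, fell from a mean of 1259 to 56.5 CPM (-4.48 ± 0.26, adjusted p = 2.2e-05). NOTUM, a secreted enzyme that strips the lipid from WNT, went from 118 and 109 counts in DE to 0 and 5 in PP1 (-5.56 ± 0.75, adjusted p = 0.00307) and had no count in PP2. It passed the filter on low counts through DE alone, and the change ran from -9.99 to -4.74 with libraries left out singly. PORCN, the enzyme that attaches that lipid in the first place, fell from 161 to 11.9 CPM (-3.76 ± 0.48, adjusted p = 0.000887). Among 10 other targets tested, 4 rose and 5 fell: APCDD1, a WNT inhibitor at the membrane, fell (-2.89 ± 0.27, adjusted p = 0.000189), and the adhesion receptor CD44 rose from 0.214 to 10.2 CPM (5.51 ± 0.39, adjusted p = 4.94e-05).

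Of 9 tested ligands 2 rose from DE to PP1 and none fell, and WNT11, known mainly for β-catenin-independent signalling, went from 1.92 to 19.5 CPM (3.33 ± 0.30, adjusted p = 0.000141). Of 4 tested genes on the R-spondin axis 1 rose: the ligand RSPO3 went from 0.370 to 10.5 CPM (4.78 ± 0.54, adjusted p = 0.000432), then fell to 0.978 CPM in PP2 (-3.40 ± 0.40, adjusted p = 0.00126). LGR4, the close relative of LGR5, did not pass from DE to PP1 (142 to 184 CPM, adjusted p = 0.398) and rose to 455 CPM in PP2 (1.30 ± 0.27, adjusted p = 0.0142). That call was lost without PP1 replicate 1 or 2 (adjusted p = 0.149 and 0.0965), and PP2 replicate 3 was the highest LGR4 library at 620 CPM. Of 10 Frizzled receptors 1 rose and 3 fell, with FZD4 at 80.8, 213 and 54.7 CPM in DE, PP1 and PP2 (1.40 ± 0.23 then -1.96 ± 0.21, adjusted p = 0.00331 and 0.000864). FZD8, another receptor, fell by 1.15 on the log2 scale (adjusted p = 0.0127), a call lost without DE replicate 2 or without either PP1 library (0.0833 to 0.108). Of 5 co-receptors 1 fell, the receptor kinase ROR2 (-1.51 ± 0.25, adjusted p = 0.00306).

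Of the signalling machinery inside the cell 2 genes fell with all libraries in the fit. Among 14 cytoplasmic components 1 fell from DE to PP1, the destruction complex scaffold APC (306 to 96.4 CPM, -1.67 ± 0.18, adjusted p = 0.000406). Among 12 nuclear components 1 fell, the co-repressor TLE1 (-1.08 ± 0.26, adjusted p = 0.0192), and that call was lost when any single DE or PP1 library was left out (0.0939 to 0.148). Without RNA PP2 replicate 3, 2 of the cytoplasmic genes rose and 7 fell, and 1 of the nuclear genes rose and 4 fell. Over the 75 genes 15 then rose and 34 fell, beside 49.8% of all genes called in either direction.

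From PP1 to PP2, 11 of the 75 rose and 13 fell in RNA, beside 7.79% and 10.6% of all genes, with a median of 0.01. Of the 9 secreted antagonists 4 rose, among them DKK2, a relative of DKK1, from 2 counts over PP1 to 906 over PP2, a ratio of 253-fold with a counting interval of 70 to 2100 (adjusted p = 0.000481). DKK2 passed the filter on low counts through PP2 alone, so a rise was the change the filter left room for. On the R-spondin axis 1 rose and 2 fell, among the Frizzled receptors 3 rose and 1 fell, and among the co-receptors 1 of each: ROR1 rose by 1.02 ± 0.17 (adjusted p = 0.00631) and ROR2 fell by 1.40 ± 0.22 (adjusted p = 0.00425). The ROR1 call was lost without PP1 replicate 1 or 2 (0.102 and 0.0682), the ROR2 call without PP1 replicate 2 (0.0507). FZD3 rose by 1.44 ± 0.28 (adjusted p = 0.0115), a call lost without PP1 replicate 1 or 2 (0.119 and 0.0990).

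Of 12 nuclear genes tested 2 fell at this step, the co-repressor TLE2 (-2.10 ± 0.25, adjusted p = 0.00146) and its family member TLE5 (-1.13 ± 0.17, adjusted p = 0.00398). The TLE5 call was lost without PP1 replicate 1, at -0.96. AXIN1, the constitutive partner of AXIN2, was the 1 of 14 cytoplasmic genes that fell (-0.74 ± 0.15, adjusted p = 0.0137), and this was lost without either PP1 library (0.127 and 0.118) or PP2 replicate 1 (0.0561). PORCN went on falling to 2.99 CPM (-1.99 ± 0.42, adjusted p = 0.0146, lost without PP1 replicate 1 or 2 at 0.110 and 0.0772). The homeobox gene MSX2 fell at both steps (-2.16 ± 0.40 then -3.76 ± 0.43, adjusted p = 0.00556 and 0.00117), the first lost without PP1 replicate 1 (0.0672). Among the other targets 1 rose and 4 fell, CD44 being one of these (-2.03 ± 0.25, adjusted p = 0.0016). Among the ligands 1 rose and 1 fell, the latter WNT11 (-1.06 ± 0.23, adjusted p = 0.0176), which was lost without either PP1 library (0.102 and 0.13) or either of PP2 replicates 1 and 2 (0.0576 and 0.0540). Without RNA PP2 replicate 3, 27 of the 75 rose and 24 fell beside 41.4% of all genes called.

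**Figure D4:**
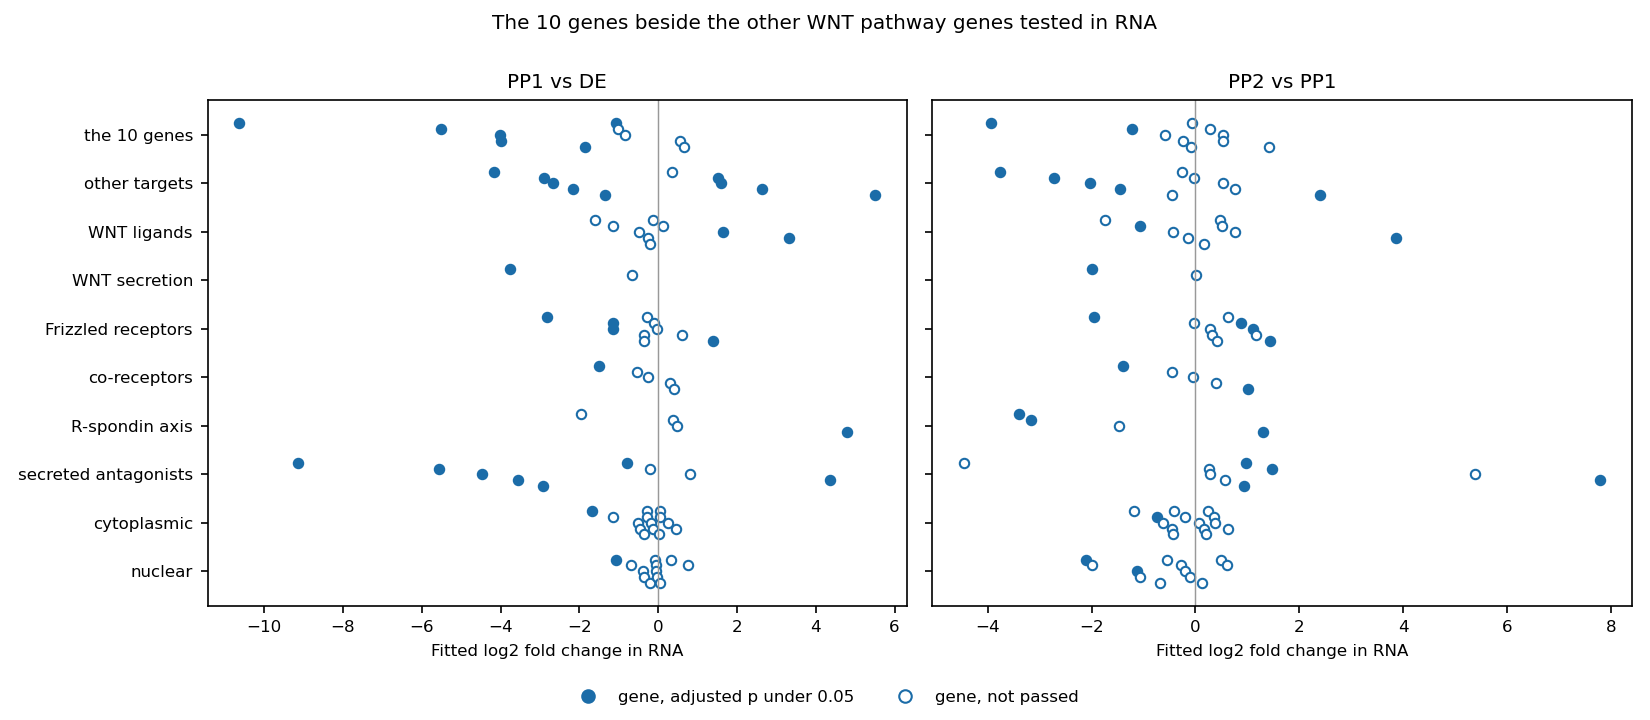
Fitted log2 fold change in RNA (x axis) of the 10 genes and of the other pathway genes tested, by list (y axis), for PP1 against DE and PP2 against PP1. Each circle is a gene, filled where the adjusted p was under 0.05. In PP1 against DE the filled circles of the 10 genes all lie below 0, while other targets lie on either side (4 higher, 5 lower).

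In RNA from DE to PP2, 16 of the 75 were higher and 23 lower, beside 16.4% and 17.1% of all genes. In Ribo 68 of the 92 were tested: 4 rose and 4 fell from DE to PP1, 12 rose and 2 fell from PP1 to PP2, and 15 were higher and 12 lower in PP2 than in DE, beside 4.53% and 3.01%, 2.16% and 2.85%, and 13.1% and 14.5% of all genes. SFRP1 and PORCN were among the 4 that fell from DE to PP1. With Ribo PP2 replicates 1 and 3 left out, 74 were tested and the counts were 8 and 11, 9 and 2, and 12 and 10. For TE, 2 of 66 tested passed as higher in PP2 against DE, the secreted antagonists FRZB and SFRP1, beside 2.01% of all genes, and none in the other comparisons.

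Some reads of the 10 genes cannot be assigned with certainty. In RefSeq, LEF1 overlaps LEF1-AS1, TCF7 overlaps VDAC1, RNF43 overlaps TSPOAP1-AS1, ZNRF3 overlaps ZNRF3-AS1 and WNT3 overlaps LRRC37A2, and all of these are genes of the count table. Whether counting used strand is not given in the sources used here, so for these pairs reads of the partners cannot be told apart. AXIN2 and DKK1 overlap no other gene in that annotation. NKD1, LGR5 and SP5 overlap only noncoding genes that are absent from the count table, so reads of those cannot be told apart either.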

How the data were processed

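The authors deposited raw counts per gene and library in 1 table, together with the length of each gene model, which was used for levels per kilobase. Per the submitters' processing notes, the tools were cutadapt 1.18, Bowtie 1.2, STAR 2.7.1a and featureCounts 1.6.4 with the build hg38. Their order, the strand setting, the annotation release and the feature counted in Ribo are not given in the sources used here. Each of the 14 columns carried the name of 1 sample, and 0 columns were left over.

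Each assay was fitted with its 7 libraries and 3 stages together in edgeR 4.0.16 (R 4.3.3), with filterByExpr, TMM scaling and the quasi-likelihood F test. TE was an interaction in 1 fit of 14 libraries in 6 groups, limited to genes that passed filterByExpr in RNA and in Ribo. Adjustment covered all genes tested. Genes with 1 to 3 counts in a group are given as ratios of rates with exact 95% conditional binomial intervals. The script was tested on simulated data.

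The 10 members were named in the RNA and Ribo comparisons, and the 8 tested for TE in at least 1 comparison each. Of the other pathway lists up to 3 genes each were named, by the size of the change among genes that passed in RNA in PP1 against DE or PP2 against PP1, if their mean reached 5 CPM in the higher stage. The 6 genes most like AXIN2 had to reach a mean of 10 CPM in their highest stage. One of them is not reported here. Members and lists were chosen with earlier results of these data known. Alternatives were DESeq2 1.42.0 (size factors and Wald test), limma 3.58.1 voom with quality weights, other filters, other gene sets for scaling, only the stages compared, a replicate block and leaving out each library. Such weights can repeat in part the removal of an outlying library. RNA thinned to Ribo depth and pathway counts without doubted libraries were added after seeing the data. Promoter sequences are RefSeq's, on GRCh38.p14.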

Additional observations from a re-analysis of the deposited data

How the results depend on the processing

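Counts of the 10 genes called in RNA from DE to PP1 and from DE to PP2 stayed within 1.5 times of the main count of 6 under every alternative. From PP1 to PP2 in RNA the count of 2 became 5 with limma voom, 1 at a mean of at least 50 counts, 0 with only the 2 stages compared, 1 with RNA thinned to Ribo depth (kept shares of 7.46% to 100%), and 0 to 6 with libraries left out singly. In Ribo from DE to PP1 the count of 2 became 1 with DESeq2, 4 with limma voom, 1 at a mean of 50 counts, 4 with only the 2 stages, 4 without Ribo PP2 replicates 1 and 3, and 0 to 4 with libraries left out singly. In Ribo from PP1 to PP2 the count of 0 became 1 with DESeq2, 3 with limma voom, 1 at a mean of 50 counts, 1 with no filter, and 0 to 4 with libraries left out; from DE to PP2 the count of 6 became 3 at a mean of 50 counts. For TE from DE to PP1 the count of 0 became 1 with DESeq2, 2 with limma voom, 1 with no filter, 2 with only the 2 stages and 1 without Ribo PP2 replicates 1 and 3. For TE from DE to PP2 it became 1 with DESeq2, 2 with limma voom and 0 to 1 with libraries left out, and from PP1 to PP2 it became 2 with limma voom and 0 to 2 with libraries left out. The stricter filter tests fewer genes and the other settings change the spread or the samples; otherwise the cause was not tested. Over all genes the calls in RNA ran from 2935 to 11999 (PP1 against DE), 1210 to 9984 (PP2 against PP1) and 4219 to 12996 (PP2 against DE). In Ribo they ran from 424 to 3150, 58 to 4175 and 1682 to 6901, and for TE from 6 to 756, 0 to 1854 and 52 to 4138, in the same order.

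No pairing by replicate number was seen: deviations of same-numbered libraries from their stage means correlated at -0.249 to 0.146 within an assay. In a stage with 2 libraries these deviations mirror each other, so the coefficients cannot settle whether libraries share a differentiation. With the replicate block the RNA count from PP1 to PP2 was 6, from DE to PP1 7 and from DE to PP2 8, and the Ribo count from DE to PP2 was 4, where TCF7 (adjusted p = 0.102) and NKD1 (0.079) did not pass. Only PP2 has a replicate 3, so in these fits the block absorbs that library. These counts are thus not a check separate from leaving out PP2 replicate 3.

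No call reversed. Among values that had not passed, the log2 difference changed sign for TCF7 in Ribo from DE to PP1 with limma voom (0.07) and the replicate block (0.03), for ZNRF3 in RNA from PP1 to PP2 with limma voom (0.13) and the block (0.15) and in Ribo from DE to PP2 at a mean of 50 counts (-0.10), for LGR5 in RNA from PP1 to PP2 (1.29) and RNF43 in RNA from DE to PP1 (-0.32) when thinned, for AXIN2 TE from DE to PP2 with no filter (0.06), and for DKK1 TE from PP1 to PP2 with only the 2 stages (0.00) and without Ribo PP2 replicates 1 and 3 (-0.33). With libraries left out singly, differences in RNA from PP1 to PP2 ran from -1.35 to 3.06 for LGR5, -0.17 to 0 for WNT3 and -0.24 to 0.16 for ZNRF3. Those in Ribo from DE to PP1 ran from -1.22 to 0.59 for DKK1, -1.19 to 0.23 for NKD1 and -0.50 to 0.69 for TCF7, and from DE to PP2 from -1.58 to 0.22 for DKK1. Those in Ribo from PP1 to PP2 ran from -1.18 to 0.20 for AXIN2, -0.69 to 0.10 for DKK1, -7.06 to 3.89 for LGR5 and -2.85 to 4.56 for SP5. TE from DE to PP1 ran from -0.13 to 1.69 for DKK1, -2.50 to 8.37 for LGR5, -6.23 to 2.82 for SP5, -1.07 to 0.12 for TCF7, -0.61 to 0.29 for WNT3 and -0.28 to 0.69 for ZNRF3. TE from DE to PP2 ran from -0.49 to 0.08 for AXIN2, -0.04 to 1.78 for DKK1 and -2.37 to 3.58 for LGR5, and from PP1 to PP2 from -0.34 to 1.19 for DKK1, -8.10 to 4.91 for LGR5 and 0.00 to 9.18 for SP5.

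Depth limits the Ribo values: 1 count was worth up to 0.289 CPM in Ribo and up to 0.0684 CPM in RNA. A change of scaling moved the median of all genes by at most 0.101 on the log2 scale.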
